A study of Zea mays with 6 samples.

Results

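The 49 loci described here are genes of maize endosperm whose messenger RNA level was strongly reduced in the mutant smk8-ref. They were chosen by their measured values out of 36781 loci: the highest of 3 smk8-ref libraries had to lie below 0.5 times the lowest of 3 wild-type (WT) libraries. The study sequenced RNA of endosperm at 12 days after pollination from WT and from the smk8-ref mutant, with 3 libraries of each genotype and no other treatment. The name smk8-ref follows the maize convention for the reference allele of a mutant, and the labels give neither the gene affected, the inbred background, nor how many kernels or ears went into a library. Levels are FPKM, the number of fragments divided by transcript length and by library size, summed here over all transcripts of a locus.

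The endosperm is the tissue of the maize kernel that feeds the embryo and the seedling. In the period of grain filling its starchy cells take up sucrose from the mother plant and turn it into starch, while storage proteins gather in the endoplasmic reticulum. Aleurone, transfer cells and the region around the embryo are its other cell types, and small-kernel mutants of maize are known for kernels in which filling is slowed or incomplete.

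The deposited table gives each of the 49 loci an identifier and no name, so what their products do cannot be stated here. They are therefore ordered by level, by depth of the reduction, by transcript and by place on the chromosome. Of all loci, 6579 reached the lower limit of 5 FPKM in every WT library, and 6306 of these were on a numbered chromosome, without a name, and outside an interval of chromosome 4 (5846538 to 6359146) that was left out. The 49 were 0.777% of these 6306 eligible loci. With the genotypes exchanged, 75 of 6807 loci (1.10%) met the same limits. The choice depended on single libraries: 84 loci met the limits without WT replicate 2, 90 without WT replicate 3 and 95 without smk8-ref replicate 3, and all 49 were among them in each case, as the limits require.

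**Figure D1:**
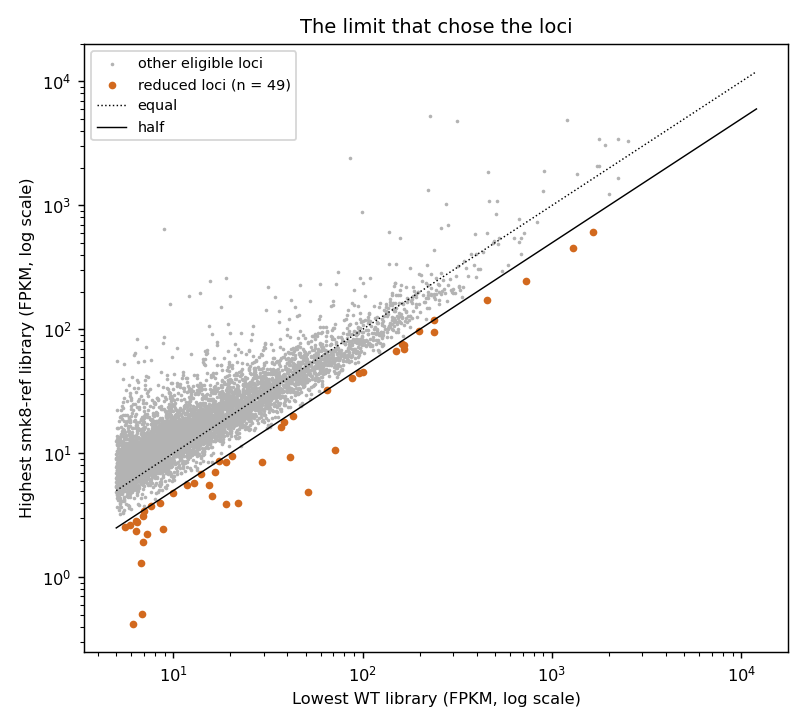
Highest smk8-ref library against lowest WT library for the 6306 eligible loci, in FPKM on log axes; orange points are the 49 reduced loci and the solid line marks 0.5 times the WT value. By construction every orange point lies under that line.

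FPKM is already divided by library size, so its sums do not measure the size of a library. These sums ran from 287260 to 321002 in WT and from 294002 to 305360 in smk8-ref. Read totals are not stated by the sources used here. The 10 most abundant transcripts held 9.09% to 10.7% of the sum in WT and 11.4% to 14.9% in smk8-ref. Few markers of kernel cell types carry a name in the table. PPDK2, a pyruvate phosphate dikinase abundant in starchy endosperm, was the single measured gene of 21 starchy endosperm markers and stood at 2259 to 2904 FPKM in WT and 1475 to 2023 in smk8-ref. Of 13 embryo, meristem and oil-body markers 4 were measured (OBAP1A, OBAP2A, OBAP2B and KN-1). Their summed level was 20.7, 26.2 and 68.0 FPKM in WT replicates 1 to 3 and 89.1, 59.1 and 77.6 FPKM in smk8-ref replicates 1 to 3. WT replicate 3 thus lay among the smk8-ref libraries for this sum, and also for OBAP1A and OBAP2B singly. For OBAP2A and KN-1 it lay below every smk8-ref library. Of the embryo-surrounding region markers, ESR3 had 3.22, 3.23 and 4.68 FPKM in WT and 0.308, 1.75 and 0.837 FPKM in smk8-ref, with no overlap, and was called lower in limma with Benjamini-Hochberg adjustment. ESR1 had 1.90, 1.4997 and 1.72 FPKM in WT and 0.601, 6.76 and 1.06 FPKM in smk8-ref, where replicate 2 stood above WT and the others below. The part of these markers in the levels of the 49 loci was not tested.

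The 49 loci summed to 7590, 6707 and 7434 FPKM in WT replicates 1 to 3 and to 1309.9, 1607 and 2409 FPKM in smk8-ref replicates 1 to 3. As a share of all FPKM this was 2.36%, 2.33% and 2.34% in WT and 0.429%, 0.538% and 0.819% in smk8-ref. In whole-tissue RNA, fewer cells of a type and less RNA per cell cannot be told apart.

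The median locus kept 28.1% of its WT mean in smk8-ref (quartiles 19.1% and 33.0%), against 90.3% for the 6306 eligible loci. The median log2 change on the log2(FPKM + 1) scale was -1.72 among the 49 loci, with values from -4.19 to -1.11, against -0.13 among eligible loci and 0.05 among all 15858 loci tested. These values come from the contrast that chose the loci and are a description. The WT limit of 5 FPKM by itself carried all 49 past the expression filter of 1 FPKM in 3 libraries. Non-overlap of the genotypes with smk8-ref lower, which the limits impose on all 49, was found in 30% of eligible loci. All 49 also passed the adjusted threshold of 0.05 in limma with Benjamini-Hochberg adjustment, where 7.6% of all tested loci were called in either direction, 4.21% were called lower, and 9.02% of eligible loci were called lower. Nothing is read from that count, and it was 12 with smk8-ref replicate 1 left out, 12 without smk8-ref replicate 2 and 10 without WT replicate 1. Over all tested loci 538 were called higher and 667 lower, a split that became 295 and 857 under TMM scaling and 309 and 785 under median-of-ratios scaling.

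**Figure D2:**
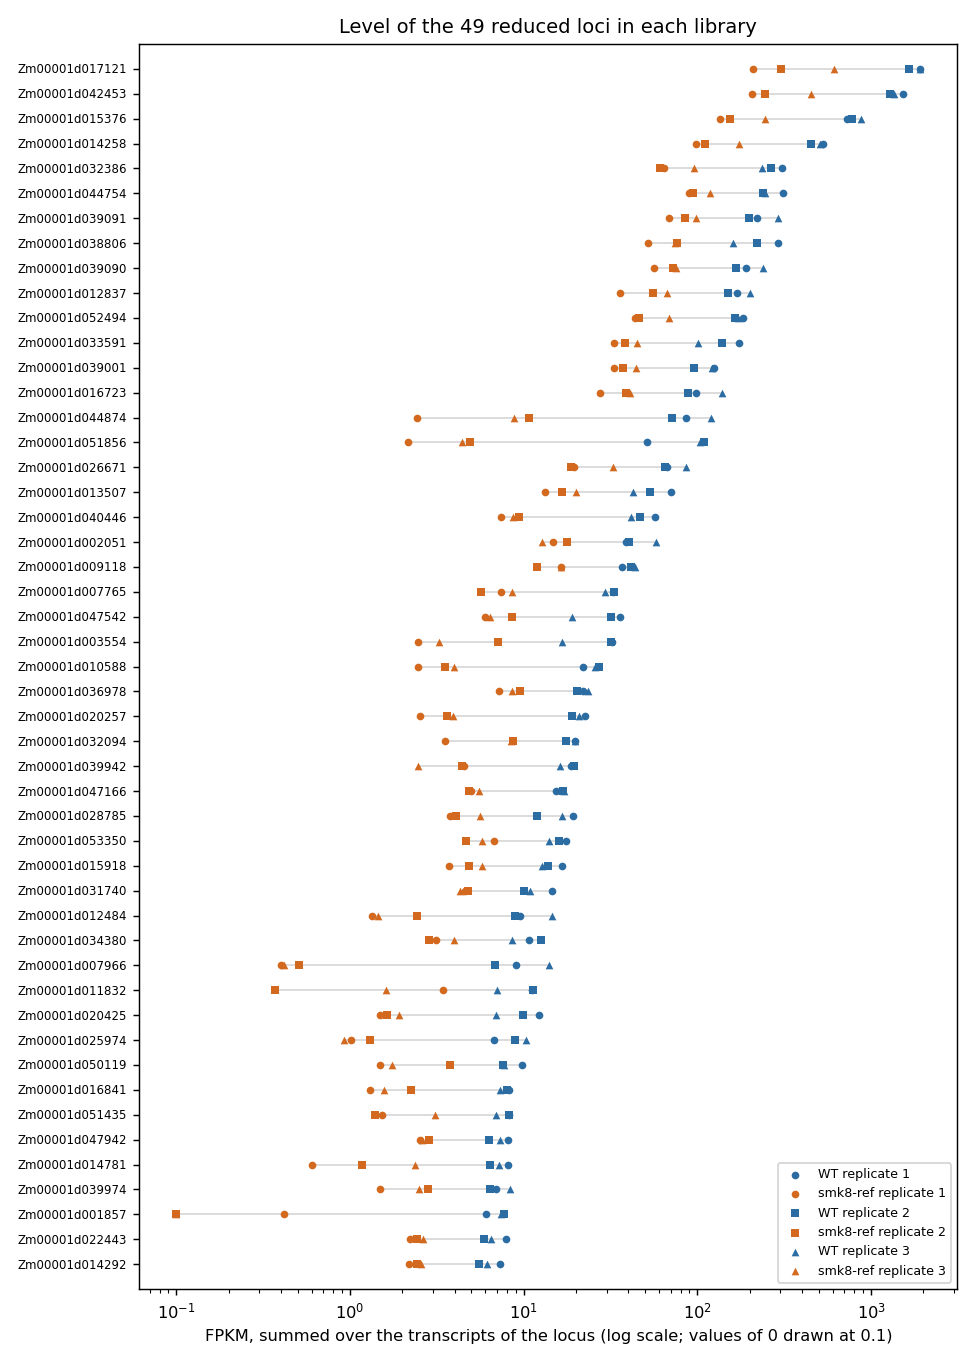
FPKM of each of the 49 loci in every library on a log axis, ordered by WT mean from top to bottom, with WT in blue and smk8-ref in orange and 1 symbol per replicate. WT means run from 6.32 FPKM at the bottom to 1828 FPKM at the top, and values of 0 are drawn at 0.1.

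The reduced loci reached high in the range of abundance. Of the eligible loci with a WT mean of 500 FPKM or more, 3 of 38 (7.89%) were among the 49, and of those between 100 and 500 FPKM, 11 of 338 (3.25%). Between 50 and 100 FPKM it was 4 of 497 (0.805%), between 10 and 50 FPKM 18 of 3528 (0.510%) and between 5 and 10 FPKM 13 of 1905 (0.682%). WT level is among the values that chose the loci, so these shares are a description and carry no test. The 38 eligible loci at 500 FPKM or more had a median log2 change of -0.27, against -0.13 among all eligible loci. Those of the 38 outside the 49 ran from -1.22 to 2.46. The 14 loci above 100 FPKM made up 88.5% of the summed WT level of all 49.

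The most abundant was Zm00001d017121 (chromosome 5, 186104976 to 186109690, plus strand), the locus of rank 14 of the whole table by WT mean. Its WT libraries, in the order of replicates 1 to 3 kept from here on, held 1915, 1649 and 1919 FPKM, and its smk8-ref libraries held 208, 301 and 608 FPKM. Its smk8-ref values differed by a ratio of 2.93 between replicates 3 and 1, and the highest was 0.368 times the lowest WT value. Means were 1828 ± 155 FPKM (SD, n = 3) in WT and 372 ± 209 in smk8-ref. The log2 change was -2.43 with an SE of 0.37, and in smk8-ref the locus had rank 72.

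Zm00001d042453 (chromosome 3, 168340504 to 168343022, plus strand) had 1528, 1284 and 1362 FPKM in WT and 206, 246 and 451 FPKM in smk8-ref. The smk8-ref libraries stood in the same order as for Zm00001d017121, with replicate 3 highest. The means were 1391 ± 125 and 301 ± 132 FPKM, a log2 change of -2.29 ± 0.29.

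Zm00001d015376 (chromosome 5, 87051940 to 87055648, plus strand) had 725, 779 and 879 FPKM in WT and 134, 153 and 245 FPKM in smk8-ref (log2 change -2.20 ± 0.24). Zm00001d014258 (chromosome 5, 38466701 to 38476589, minus strand) had 528, 452 and 507 FPKM in WT and 98.4, 110.2 and 173 FPKM in smk8-ref (log2 change -2.00 ± 0.22). In both, the smk8-ref value of replicate 3 was the highest and replicates 1 and 2 lay close together. Zm00001d017121, Zm00001d042453 and Zm00001d015376 also had the highest smk8-ref means of the 49.

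At the next lower WT levels the reductions were smaller. Zm00001d032386 (chromosome 1, 225026376 to 225031085, minus strand) had 308, 265 and 237 FPKM in WT and 64.0, 60.6 and 95.8 FPKM in smk8-ref (log2 change -1.89 ± 0.20). Zm00001d044754 (chromosome 9, 1340766 to 1353747, minus strand) had 311, 238 and 245 FPKM in WT and 90.003, 94.4 and 118 FPKM in smk8-ref (log2 change -1.38 ± 0.17). Zm00001d038806 (chromosome 6, 164808309 to 164812048, plus strand) had 292, 222 and 161 FPKM in WT and 51.8, 76.5 and 74.7 FPKM in smk8-ref (log2 change -1.70 ± 0.25). In Zm00001d038806 the WT libraries themselves ranged from 161 to 292 FPKM, with replicate 3 the lowest.

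The other loci above 100 FPKM repeated this range. Zm00001d052494 (chromosome 4, 191353211 to 191358538, minus strand) had 184, 165 and 170.3 FPKM in WT and 43.9, 46.1 and 68.9 FPKM in smk8-ref. Zm00001d012837, Zm00001d033591, Zm00001d039001 and Zm00001d016723, named here after their values were seen, had WT means of 174, 137, 114 and 108 FPKM and smk8-ref means of 52.5, 38.8, 38.1 and 35.6 FPKM. Over all 14 loci above 100 FPKM the smk8-ref mean was 20.4% to 38.2% of the WT mean, and no log2 change was below -2.43 or above -1.38.

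The abundant loci also shared an order of the smk8-ref libraries that the limits did not ask for. In each of the 14 loci above 100 FPKM replicate 3 exceeded replicate 1, by ratios from 1.32 to 2.93 with a median of 1.49. Among all 376 eligible loci at that WT level, 274 had the same order, with a median ratio of 1.12. The level left in these 14 loci had a median of 23.9% of the WT mean in smk8-ref replicate 1, 29.8% in replicate 2 and 36.6% in replicate 3. Over all 49 loci, 42 had a higher value in replicate 3 than in replicate 1, against 3938 of 6306 eligible loci (62.4%). These loci share libraries and are not independent, so the counts carry no test. The share of FPKM held by the 10 most abundant transcripts ran the other way, at 14.9%, 12.8% and 11.4% in smk8-ref replicates 1 to 3, and its part in this order was not tested.

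**Figure D3:**
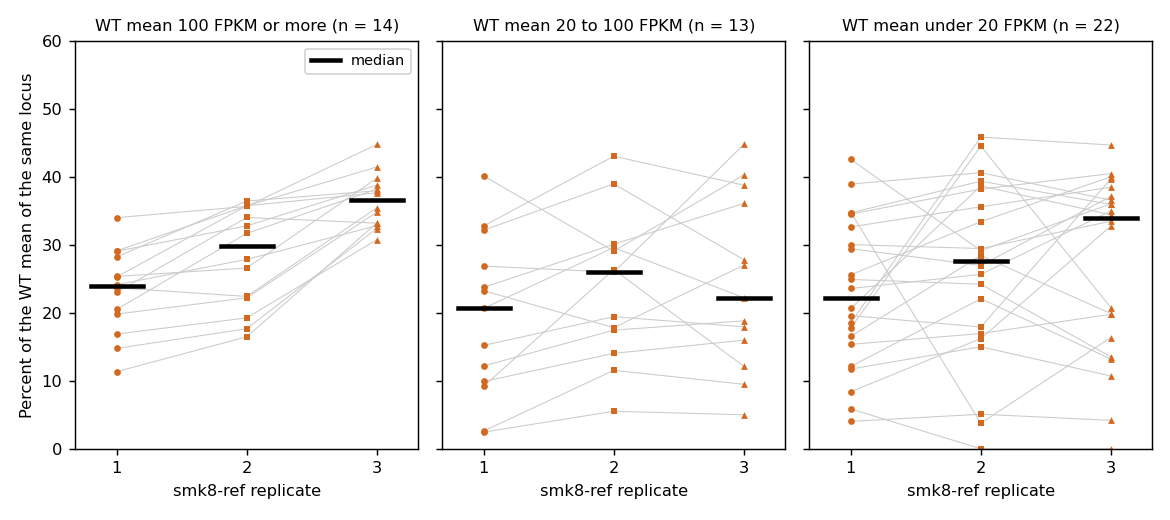
Level of each locus in each smk8-ref library as a percent of its own WT mean, in 3 panels by WT mean; thin lines join the values of 1 locus and black bars are medians. In the left panel the medians are 23.9%, 29.8% and 36.6%; in the middle panel they are 20.7%, 26.0% and 22.2%; in the right panel they are 22.1%, 27.7% and 34.0%.

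At 4 of the 49 loci less than 10% of the WT mean was left. Zm00001d051856 (chromosome 4, 172458488 to 172488411, minus strand) had 51.5, 109 and 104 FPKM in WT and 2.17, 4.87 and 4.42 FPKM in smk8-ref. WT replicate 1 stood well below the other WT libraries, and all smk8-ref libraries were below 0.1 times its value. Its log2 change of -4.19 ± 0.35 was the most negative of the 49 on the log2(FPKM + 1) scale (with a pseudocount of 0.1, Zm00001d001857 was lower), and its smk8-ref mean was 4.33% of the WT mean.

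Zm00001d044874 (chromosome 9, 6096248 to 6097444, plus strand) had 85.7, 71.1 and 120.4 FPKM in WT and 2.42, 10.7 and 8.78 FPKM in smk8-ref, a log2 change of -3.64 ± 0.46. Zm00001d007966 (chromosome 2, 244311542 to 244316936, minus strand) had 8.98, 6.80 and 14.1 FPKM in WT and 0.401, 0.507 and 0.417 FPKM in smk8-ref, a log2 change of -2.87 ± 0.25. In Zm00001d007966 the smk8-ref libraries lay close together while the WT libraries ranged from 6.80 to 14.1 FPKM. Zm00001d001857 (chromosome 2, 2015253 to 2016537, minus strand) had 6.10, 7.74 and 7.43 FPKM in WT and 0.416 FPKM in smk8-ref replicate 1, and it was listed at 0 in smk8-ref replicates 2 and 3. A listed 0 can be a failed estimate, and no fold is given for it.

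Another 9 loci kept between 10% and 20% of the WT mean. Zm00001d010588 (chromosome 8, 121126170 to 121128814, plus strand) had 22.05, 27.0 and 25.7 FPKM in WT and 2.47, 3.50 and 3.99 FPKM in smk8-ref (log2 change -2.60 ± 0.17). Zm00001d040446 (chromosome 3, 43701925 to 43707461, minus strand) had 56.9, 46.7 and 41.2 FPKM in WT and 7.35, 9.39 and 8.67 FPKM in smk8-ref (log2 change -2.37 ± 0.16). Zm00001d020257 (chromosome 7, 102493334 to 102494600, plus strand) had 22.5, 18.9 and 20.9 FPKM in WT and 2.53, 3.63 and 3.92 FPKM in smk8-ref (log2 change -2.33 ± 0.17). In these 3 loci the highest smk8-ref value was 0.181, 0.228 and 0.207 times the lowest WT value. The smk8-ref value of replicate 3 was 1.61, 1.18 and 1.54 times that of replicate 1.

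Zm00001d003554 (chromosome 2, 47866673 to 47867299, minus strand) was less even within each genotype than these 3 loci. It had 32.1, 31.7 and 16.7 FPKM in WT and 2.47, 7.08 and 3.26 FPKM in smk8-ref (log2 change -2.44 ± 0.37). Its highest smk8-ref library reached 0.425 times its lowest WT library. Zm00001d011832 (named after its values were seen; chromosome 8, 162291112 to 162292515, minus strand) had 11.2, 11.3 and 6.98 FPKM in WT and 3.42, 0.371 and 1.61 FPKM in smk8-ref, the widest spread among smk8-ref libraries, relative to their mean, of the loci without a listed 0. The remaining loci of this class, Zm00001d012484, Zm00001d020425, Zm00001d025974 and Zm00001d014781, had WT means of 7.22 to 11.0 FPKM and smk8-ref means of 1.08 to 1.74 FPKM.

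Zm00001d002051 (chromosome 2, 5013826 to 5016702, minus strand) had 38.6, 40.6 and 58.0 FPKM in WT and 14.7, 17.8 and 12.7 FPKM in smk8-ref. Zm00001d009118 (chromosome 8, 37520293 to 37521579, minus strand) had 37.0, 41.7 and 43.6 FPKM in WT and 16.4, 11.9 and 16.4 FPKM in smk8-ref. These were the most abundant reduced loci of their chromosomes, and smk8-ref replicate 3 was 0.864 times replicate 1 in Zm00001d002051 and level with it in Zm00001d009118. Of all 49 loci, 13 kept 20% to 30% of the WT mean and 23 kept 30% or more. The 13 loci with WT means between 20 and 100 FPKM had smk8-ref means of 3.32 to 23.6 FPKM, and the 22 below 20 FPKM had smk8-ref means up to 6.92 FPKM. In 20 of the 49 every smk8-ref library was under 5 FPKM, the level that each WT library had to reach.

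Among the less abundant loci, named here after their values were seen, the order of the smk8-ref libraries varied. Zm00001d039942 (chromosome 3, 20067714 to 20068163, minus strand) had 18.8, 19.4 and 16.1 FPKM in WT and 4.51, 4.39 and 2.45 FPKM in smk8-ref, with replicate 3 at 0.543 times replicate 1. Zm00001d014781 (chromosome 5, 62906432 to 62906983, plus strand) had 8.08, 6.36 and 7.21 FPKM in WT and 0.606, 1.17 and 2.37 FPKM in smk8-ref, with replicate 3 at 3.90 times replicate 1. The smk8-ref libraries thus stood in opposite orders at these loci.

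Some low loci had smk8-ref libraries that lay close together, and Zm00001d047166 was even in WT as well. Zm00001d047166 (chromosome 9, 120520071 to 120525521, minus strand) had 15.4, 16.9 and 17.1 FPKM in WT and 4.96, 4.86 and 5.52 FPKM in smk8-ref. Zm00001d022443 (chromosome 7, 177801636 to 177803309, plus strand) had 7.95, 5.93 and 6.52 FPKM in WT and 2.22, 2.42 and 2.62 FPKM in smk8-ref. Zm00001d014292 (chromosome 5, 39727457 to 39730682, minus strand) had the lowest WT mean of the 49, with 7.29, 5.55 and 6.12 FPKM in WT and 2.19, 2.42 and 2.56 FPKM in smk8-ref, and the log2 change nearest to 0, -1.11 ± 0.15. On the log2(FPKM + 1) scale the change of such low loci is understated.

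The limit had no gap around it. Just inside it lay Zm00001d032094 (chromosome 1, 212314858 to 212315259, minus strand), with 19.8, 17.4 and 19.8 FPKM in WT and 3.53, 8.72 and 8.50 FPKM in smk8-ref, and a ratio of highest smk8-ref to lowest WT of 0.4999. The next inside were Zm00001d044754 (0.499), Zm00001d026671 (0.498) and Zm00001d039091 (0.494). Of these, Zm00001d026671 (chromosome 10, 149704637 to 149706805, minus strand) held 66.6, 65.2 and 85.5 FPKM in its WT libraries and 19.5, 18.8 and 32.5 FPKM in its smk8-ref libraries. Just outside were Zm00001d048159 (chromosome 9), with 22.7, 22.8 and 25.2 FPKM in WT and 7.24, 11.4 and 9.83 FPKM in smk8-ref (0.501), Zm00001d052333 (0.506), Zm00001d033707 (0.508) and Zm00001d024610 (0.511). These 4 kept 32.0% to 40.2% of their WT means, against a highest value of 38.8% among the 49.

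Most of the reduced loci were represented by a single transcript. The table lists 1 transcript for 29 of the 49 (59.2%), against 2036 of 6306 eligible loci (32.3%). They also covered less of the chromosome, with a median span from first to last base of 2385 bp against 4520 bp. Spans under 1000 bp were found in 11 of the 49 (22.4%) and in 393 eligible loci (6.23%). These 11 short loci lay on 7 chromosomes, each had 1 transcript and spanned 384 to 946 bp, and they kept 12.5% to 36.4% of their WT means. The most abundant of them were Zm00001d012837 (chromosome 5, 975110 to 975562, plus strand), with 170.0, 151 and 201 FPKM in WT and 35.7, 55.2 and 66.5 FPKM in smk8-ref, and Zm00001d016723 (chromosome 5, 174196062 to 174196472, plus strand), with 97.9, 88.3 and 138 FPKM in WT and 27.4, 38.7 and 40.7 FPKM in smk8-ref. FPKM of short transcripts depends on how fragment length was treated, which the sources used here do not state.

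At 41 of the 49 loci the leading transcript held at least 90% of the WT level. At 12 loci 2 or more transcripts had a WT mean of at least 1 FPKM, 36 transcripts in all. Of these, 34 had a lower mean in smk8-ref, 14 met by themselves the limit of 0.5 between highest smk8-ref and lowest WT library, and 7 had overlapping genotypes. The transcript with the highest WT level was the same in both genotypes at every one of the 49 loci but Zm00001d052494. There transcript T001 stood at 86.2, 74.4 and 123 FPKM in WT and 18.6, 14.8 and 26.5 FPKM in smk8-ref, and T003 at 90.8, 85.8 and 42.6 FPKM in WT and 21.3, 26.2 and 37.0 FPKM in smk8-ref. T001 exceeded T003 in WT replicate 3 alone, and the lead of T001 in WT rests on that library.

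**Figure D4:**
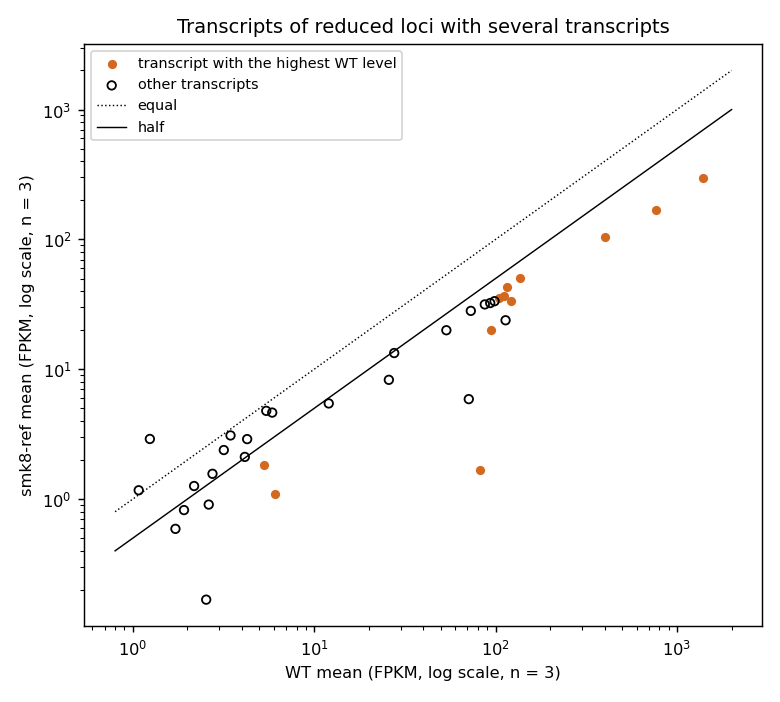
WT mean against smk8-ref mean, in FPKM on log axes, for 36 transcripts of the 12 reduced loci with several transcripts; filled points are the leading WT transcript of a locus and open points the others. The leading transcripts lie under the solid line at 0.5 times the WT value, and open points above the dotted line of equal values are 2 minor transcripts.

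Some minor transcripts did not follow the leading one. At Zm00001d014258 the leading transcript T004 (38471224 to 38476497) had 442, 381 and 376 FPKM in WT and 80.0, 90.3 and 141 FPKM in smk8-ref. T001 of the same locus (38466701 to 38470580) does not overlap T004 and had 1.57, 0.465 and 1.69 FPKM in WT and 2.36, 2.86 and 3.50 FPKM in smk8-ref, the opposite order with no overlap of the genotypes. The sum of this locus thus joins transcripts from separate stretches of the chromosome. Transcript T002 (38466701 to 38476589) spans both stretches, with means of 2.75 FPKM in WT and 1.57 FPKM in smk8-ref. At Zm00001d051856 transcript T005 had 48.7, 102 and 97.0 FPKM in WT and 0.487, 2.87 and 1.69 FPKM in smk8-ref, and its share of the locus was 93.6% in WT and 44.0% in smk8-ref. At Zm00001d047166 T001 stood at 15.2 ± 1.07 FPKM in WT and 3.29 ± 0.589 FPKM in smk8-ref (SD, n = 3) and T003 stood at 0.986 ± 0.217 and 1.39 ± 0.398 FPKM. Reads of overlapping transcripts have to be divided among them by estimation, so low values of minor transcripts are uncertain.

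The 49 loci were spread over all 10 numbered chromosomes. Chromosome 5 held 10 of them (1.28% of its 784 eligible loci), and chromosome 10 held 2 (0.504% of 397), with the other chromosomes between 0.601% and 1.08%. Within 200 kb of another reduced locus lay 2 of the 49, Zm00001d039090 and Zm00001d039091 on chromosome 6. No such count for other eligible loci is given here, so nothing is read from this number. The next closest neighbours were 1.25 Mb apart.

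Zm00001d039090 (169788530 to 169791254) and Zm00001d039091 (169864685 to 169867294) lie on the minus strand of chromosome 6 with 73.4 kb between them and no other locus of the table starting in that space. Zm00001d039090 had 190.3, 166 and 239 FPKM in WT and 56.1, 72.4 and 75.4 FPKM in smk8-ref. Zm00001d039091 had 220, 198 and 290 FPKM in WT and 68.7, 84.3 and 97.8 FPKM in smk8-ref. The pair kept nearly the same proportion in every library, since the ratio of Zm00001d039091 to Zm00001d039090 was 1.15, 1.19 and 1.21 in WT and 1.22, 1.16 and 1.30 in smk8-ref. Their sequences were not analysed here, so reads shared between similar copies would not have been seen, and the division of reads between the 2 loci is uncertain.

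The nearest measured loci on either side, 96 loci that were not themselves among the 49, had a median log2 change of 0.03, with values from -0.87 to 1.11. On the log2(FPKM + 1) scale 0 of the 96 were lower by 2-fold or more and 2 were higher, and 1.83% of all 15858 tested loci were lower by 2-fold or more. By the ratio of FPKM means, computed after the data were seen, 1 of the 96 was lower by 2-fold or more and 3 were higher, against 2.93% of tested loci lower. The locus lower by that ratio was Zm00001d031736, beside Zm00001d031740, with means of 1.27 FPKM in WT and 0.406 FPKM in smk8-ref. The 2 higher on the log2(FPKM + 1) scale were Zm00001d014291, beside Zm00001d014292, with 1.59, 1.64 and 2.40 FPKM in WT and 2.95, 11.6 and 3.72 FPKM in smk8-ref, and Zm00001d022444, beside Zm00001d022443, with 45.9, 38.8 and 25.8 FPKM in WT and 81.3, 66.4 and 72.9 FPKM in smk8-ref. The first rests mainly on smk8-ref replicate 2, and the ratio of means of Zm00001d022444 was just under 2. Out to the fifth measured locus on each side, 11 of 472 were lower and 8 higher by 2-fold or more on the log2(FPKM + 1) scale, and 17 were lower and 30 higher by the ratio of means. Over all 15858 tested loci, 465 were lower and 1190 higher by 2-fold or more by the ratio of means. On the log2(FPKM + 1) scale 290 of the 15858 were lower, and the number higher is not given here. The largest of the 11 differences, singled out after its value was seen, was at Zm00001d012833 (chromosome 5, 958243 to 960125, plus strand), the second measured locus from Zm00001d012837. It had 4.67, 3.49 and 2.19 FPKM in WT and 0.117, 0.151 and 0.0555 FPKM in smk8-ref, under the WT limit of 5 FPKM.

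**Figure D5:**
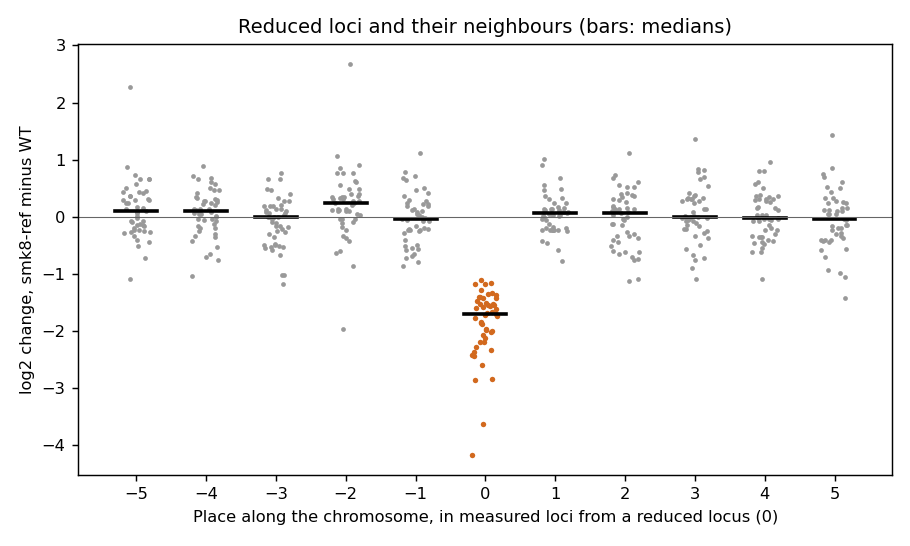
log2 change (smk8-ref minus WT, log2(FPKM + 1) scale) of the 49 reduced loci at place 0 and of the measured loci up to 5 places away on each side, with black bars for medians. The median is -1.72 at place 0 and between -0.04 and 0.23 at the other places.

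Another locus overlapped the span of 1 of the 49, Zm00001d051856. This was Zm00001d051857, on the opposite strand, which stood at 0.846 FPKM in WT and 1.18 FPKM in smk8-ref. It starts 18.7 kb after the start of that span, past the end of the leading transcript T005 (172458509 to 172461040). Its level was far below that of Zm00001d051856 in WT, and the sources used here do not say whether the libraries kept strand.

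Of the loci with a name, 3 met the same limits of level and ratio. GAPC3, a cytosolic glyceraldehyde-3-phosphate dehydrogenase of glycolysis, had 2219, 1864 and 2180 FPKM in WT and 430.1, 403 and 746 FPKM in smk8-ref (replicates 1 to 3). As in the most abundant of the 49, smk8-ref replicate 3 was the highest, 1.73 times replicate 1. PHI1, a glucose-6-phosphate isomerase, had 195, 169 and 165 FPKM in WT and 49.9, 42.6 and 63.2 FPKM in smk8-ref. SIP2-1, a member of the aquaporin family of channel proteins, had 30.5, 26.0 and 23.9 FPKM in WT and 10.2, 9.73 and 11.7 FPKM in smk8-ref. With these included, 52 loci met the limits. A further locus without a name, Zm00001d048843, met them inside the interval of chromosome 4 that was left out, with 5.33, 8.27 and 6.94 FPKM in WT and 1.47, 2.44 and 2.32 FPKM in smk8-ref.

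In the authors' deposited table, which compares the genotypes transcript by transcript, 57 of the 98 transcripts of the 49 loci carry the mark for lower and 1 carries the mark for higher, where 2.31% of all transcripts are marked lower. A mark for lower stands in the authors' deposited table at 46 of the 49 loci. The share of eligible loci with such a mark was not counted, and the 2.31% covers transcripts at any level. These marks come from the same libraries and contrast that chose the 49 loci, so the counts are a description and nothing is read from them. The smallest q-value that the authors' deposited table gives for any of these transcripts is 0.559.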

How the data were processed

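RNA of maize endosperm was sequenced in 3 WT and 3 smk8-ref libraries. The submitters' processing notes name HISAT, which aligns reads across introns, and StringTie, which estimates transcript levels. Their versions and settings, and the build of the genome, are not stated by the sources used here. Coordinates are those of the deposited table, whose contig names begin with B73V4. The authors deposited FPKM values for 86771 transcripts, and with them a linear fold change (a ratio), its log2 value, a p-value and its q-value for every transcript, from a model that is not stated. Whole reads were not recovered from low FPKM values (at most 0.429% of single-transcript values lay at 1 ratio between libraries), so no count test was run.

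FPKM was summed per locus, the identifier without its transcript suffix. Loci at 1 FPKM or more in at least 3 libraries (15858) were compared with limma 3.58.1 (R 4.3.3) on the log2(FPKM + 1) scale (variance trend, two-sided, Benjamini-Hochberg, threshold 0.05). The fit was run beforehand on simulated data with noise drawn separately for each value. Deviations shared across a library were not simulated. A pseudocount of 1 understates changes of low loci. The series text speaks of biological repeats without naming ears or plants, so p-values, SD and SE measure only the spread between these libraries. The 49 loci, the lists and the rule for naming loci (the 8 highest in WT, the 8 most negative log2 changes, the 4 on each side of the limit, the highest on each chromosome, close pairs, loci with a changed leading transcript, the 3 highest in smk8-ref, named loci within the limits and flanking loci with 2-fold rises) were chosen with earlier results of these data known, and the choice used the same contrast, so no test is given for them. Marker lists for aleurone (1 of 5 measured), embryo-surrounding region (2 of 4), basal transfer layer (0 of 9) and maternal pericarp (1 of 4) were also read: their summed FPKM was 7.24 to 8.93, 4.73 to 6.39, none and 0.0865 to 0.383 in WT, and 9.24 to 10.4, 0.909 to 8.51, none and 0.142 to 0.260 in smk8-ref. Matching to the gene table of RefSeq (assembly Zm-B73-REFERENCE-NAM-5.0) found 0 loci, and neither names nor sequences were added.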

Additional observations from a re-analysis of the deposited data

How the results depend on the processing

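The alternatives were other limits, scalings, pseudocounts, filters, a replicate block and leaving out single libraries. The number of reduced loci was 83 with a WT floor of 1 FPKM, 13 with a limit of 0.333 in place of 0.5, 6 with a limit of 0.2, 39 to 69 under the 4 scalings, and 61 to 95 with 1 library left out. Of the 49 loci, 48 met the limits under TMM scaling, 47 under median-of-ratios scaling, 43 with equal FPKM sums and 35 with quantile normalization. The median log2 change of the 49 loci moved to -1.40 with a pseudocount of 5 and lay between -1.82 and -1.52 with 1 library left out. It was -1.72 with the replicate block, which cannot change it when each genotype has every replicate number once. No locus changed sign in any alternative. The limits fix this for pseudocounts, the replicate block and libraries left out, because every smk8-ref library lies below every WT library. Of 686 single values, 623 moved by less than the replicate SD. These include values that could not move, from the replicate block and from the leading transcript of the 29 loci with 1 transcript. TMM scaling (an unweighted trimmed mean of log ratios) lowered the median of all tested loci from 0.05 to -0.09, a shift that the -1.88 it gave for the 49 loci includes. Loci called lower in limma were 667, and 217 with no filter, 411 with quantile normalization, 15 with the replicate block and 15 to 540 with 1 library left out. Loci called in either direction were 1205, and 388, 760, 36 and 28 to 1425 in the same settings. Of the 49 loci, 12 were called with the replicate block and 10 to 48 with 1 library left out. Libraries with equal replicate numbers showed no clear shared deviation (correlations of deviations 0.01, -0.01 and 0.08). With 3 libraries per genotype this does not settle whether they were paired. Counted by the ratio of FPKM means, chosen after seeing the data, nearest neighbours lower by 2-fold or more were 1 in place of 0, and up to 5 places away 17 were lower and 30 higher in place of 11 and 8. By that ratio 465 of all 15858 tested loci were lower and 1190 higher. No 2 of the 49 lay within 50 kb (0 loci). The cause of these changes was not tested. FPKM without read totals gives no counting error, which limits what can be said of values below about 1 FPKM.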
